A study of Mus musculus with 24 samples.

Results

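The cytosolic ribosomal protein genes were followed across 24 mouse expression arrays. A gene was a member when a probe set carried its symbol alone and the symbol was Rpl or Rps with a number and at most the letter a, l or x, or was Rplp0, Rplp1, Rplp2 or Rpsa. Symbols of the Rps6k kinases and of pseudogenes marked -ps were left out, and each gene was represented by its probe set with the highest mean over 24 arrays. The rule gave 64 members among 22180 genes with a probe set of 1 symbol, 40 of the large subunit and 24 of the small subunit. A filter that kept genes above the array median on at least 3 arrays retained 61 members among 15234 genes and removed Rpl10l, Rpl17 and Rpl3l. RefSeq lists 62 of the members as protein coding, while Rpl6l and Rps4l are listed there as pseudogenes. A further 12 symbols that fit the rule stood only on probe sets shared by several symbols and were not named.

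The arrays covered mutant and wild-type mice at 4 stages, coded V (virgin in the titles), dp12, dp18 and Lac10, with 3 arrays in each of 8 groups. Mutants and wild type shared 1 mixed strain background, FVB/129SVEV/Black Swiss. No label gives the tissue or the mutated allele, while the series title mentions BRCA1. The design text counts the stage numbers in months, so the codes are printed as labelled and were not translated.

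Ribosomal proteins coat the ribosomal RNAs of the small and the large ribosomal subunit. Cells make them in matched amounts, and their messenger RNAs start with a run of pyrimidines, the 5' terminal oligopyrimidine (TOP) tract, through which mTOR signalling controls their translation. Growth and Myc activity raise their transcription. In the mammary gland, pregnancy brings proliferation of alveolar epithelium and lactation brings a high output of milk protein.

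The start of transcription is shown because the TOP tract is the sequence feature for which this family is known. RefSeq promoter windows on GRCm38.p6, 300 bases with 250 before the annotated start, were matched to 49 of the 64 members. A C at the annotated start followed by at least 4 further C or T bases was found in 11 of these 49 members, which is 22.4%, against 3.01% of 27025 genes with a window. Allowing the run to begin within 5 bases of the annotated start gave 21 members, or 42.9%, against 21.2% of all genes. The motif CCGGAAG, a core bound by Ets factors, lay on either strand of the window in 22 members, or 44.9%, against 9.93% of all genes. The motif AAGATGG, a core bound by YY1, was found on either strand in 6 members, or 12.2%, against 7.28% of all genes. The following 30-base windows hold 10 bases before the annotated start and 20 from it, 5′ to 3′, with the pyrimidine run at the start in capitals. Rps6, Rpl14, Rpl15 and Rpl35 are shown as members that moved closely with the rest, Rplp2 and Rpl32l as the members that passed the test in a comparison, and Rpl39l as a member without such a run at its annotated start. These windows were picked, and a relation between the run and the movement of a member was not tested. Rps3, which moved more closely with the rest than Rps6, had no such run. Rps18, which moved against the rest, had a run of 9 bases.
Rps6, chr4:86857348-86857377, minus strand: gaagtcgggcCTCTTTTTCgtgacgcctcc
Rpl14, chr9:120571507-120571536, plus strand: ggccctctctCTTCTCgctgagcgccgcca
Rpl15, chr14:18270967-18270996, minus strand: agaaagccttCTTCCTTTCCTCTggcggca
Rpl35, chr2:39005112-39005141, minus strand: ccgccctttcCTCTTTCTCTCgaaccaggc
Rplp2, chr7:141447641-141447670, plus strand: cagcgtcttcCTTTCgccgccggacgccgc
Rpl32l, chr10:20208429-20208458, plus strand: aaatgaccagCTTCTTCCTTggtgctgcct
Rpl39l, chr16:10170218-10170247, plus strand: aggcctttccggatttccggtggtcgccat

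Some arrays stood apart or went against their stage label. The arrays labelled mutant dp18 replicate 1, mutant Lac10 replicate 2 and wild type dp18 replicate 1 had a median correlation with the other arrays of 0.863, 0.799 and 0.837, and the other 21 were above 0.9. The wild type V arrays came next, with 0.91, 0.92 and 0.91. Their upper quartiles were 6.69, 6.77 and 6.72, against 7.04, 6.98 and 6.91 at mutant V. Their median deviation over all genes tested was -0.19, -0.03 and -0.17, against 0.06, 0.02 and 0.05 at mutant V. Every comparison with wild type V rests on these arrays, and the part of this shift was not tested. The array labelled mutant dp18 replicate 2 correlated best with mutant Lac10 replicate 3 (0.976), and its value of the milk protein gene Csn1s2b was 10.37, against 6.30 and 5.93 on the other arrays of its group. The array labelled wild type Lac10 replicate 1 correlated best with mutant dp12 replicate 1 (0.990), and its Csn1s2b value was 6.47, against 11.47 and 11.24 on the other arrays of its group. The beta-casein gene Csn2 had values of 10.17 to 13.17 over all 24 arrays. The titles number the animals, and most arrays have a body weight of their own, so the arrays of a group were taken as separate animals. The array labelled mutant Lac10 replicate 1 correlated best with wild type V replicate 1 (0.968), and its Csn1s2b value was 8.19, against 10.43 and 11.32 in its group. Mutant dp18 replicate 3, mutant Lac10 replicates 2 and 3, and mutant V replicate 1 also correlated best with an array of another stage. So did wild type V replicates 1 and 3, so such a match alone does not set an array apart. Some of the results that rest on arrays that stood apart or went against their label are given below with and without them. Gene lists and cell type markers were fitted only with all 24 arrays.

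Values are log2 intensities, so a difference of 1 is a 2-fold difference. The 61 members ran from a mean of 12.68 for Rps6, the small-subunit protein phosphorylated by S6 kinase, through 12.49 for Rpl41 and 12.43 for Rpl21, to 5.37 for Rps4l, 5.22 for Rps15 and 4.96 for Rpl32l. Array medians over all probe sets were 5.31 to 5.62, so the probe sets of the last 3 genes lay near or below the middle of the arrays. Such levels belong to the probe sets and give no order of transcript abundance. The mean exceeded the mean upper quartile of the arrays for 42 members, called bright below, and did not for 19. Rplp2 (5.40), Rpl5 (5.57) and Rpl11 (5.44) were among the 19 dim members. Rplp2 is a stalk protein of the large subunit, and free Rpl5 and Rpl11 bind Mdm2. Of 24 members with several probe sets, 14 had a second probe set more than 2 log2 units below the first, and the median correlation between first and second was 0.51 over 24 arrays.

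Most members moved together from array to array. Their correlation with the median of the other members, over 24 arrays that share stage and array effects, had a median of 0.72 and exceeded 0.5 for 43 of 61. The closest were Rpl7 (0.94), Rpl35 (0.92), Rpl6l (0.92), Rpl15 (0.91) and Rpl14 (0.91), all of the large subunit by symbol. Rpl39l (-0.49), Rps23 (-0.45), Rps18 (-0.26), Rpl11 (-0.16), Rps16 (-0.10), Rpl39 (-0.06) and Rps4l (0.00, slightly below 0) were the 7 members with a negative correlation. Among these 7, Rpl39l and Rps18 had their 3 highest values on the 3 arrays with a median correlation under 0.9. Rps18 was the bright one of the 7, with a mean of 6.96 against a cut of 6.89. Of its 3 probe sets, the second (mean 5.82) correlated at -0.75 with the one used and the third (mean 5.42) at 0.78. The median correlation between pairs of members was 0.65 among the bright members and 0.19 among the dim ones. The SD within groups had a median of 0.27 over the members, against 0.37 over all 15234 genes, with Rps6 (0.08) at the low end and Rps13 (1.66) at the high end.

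**Figure D1:**
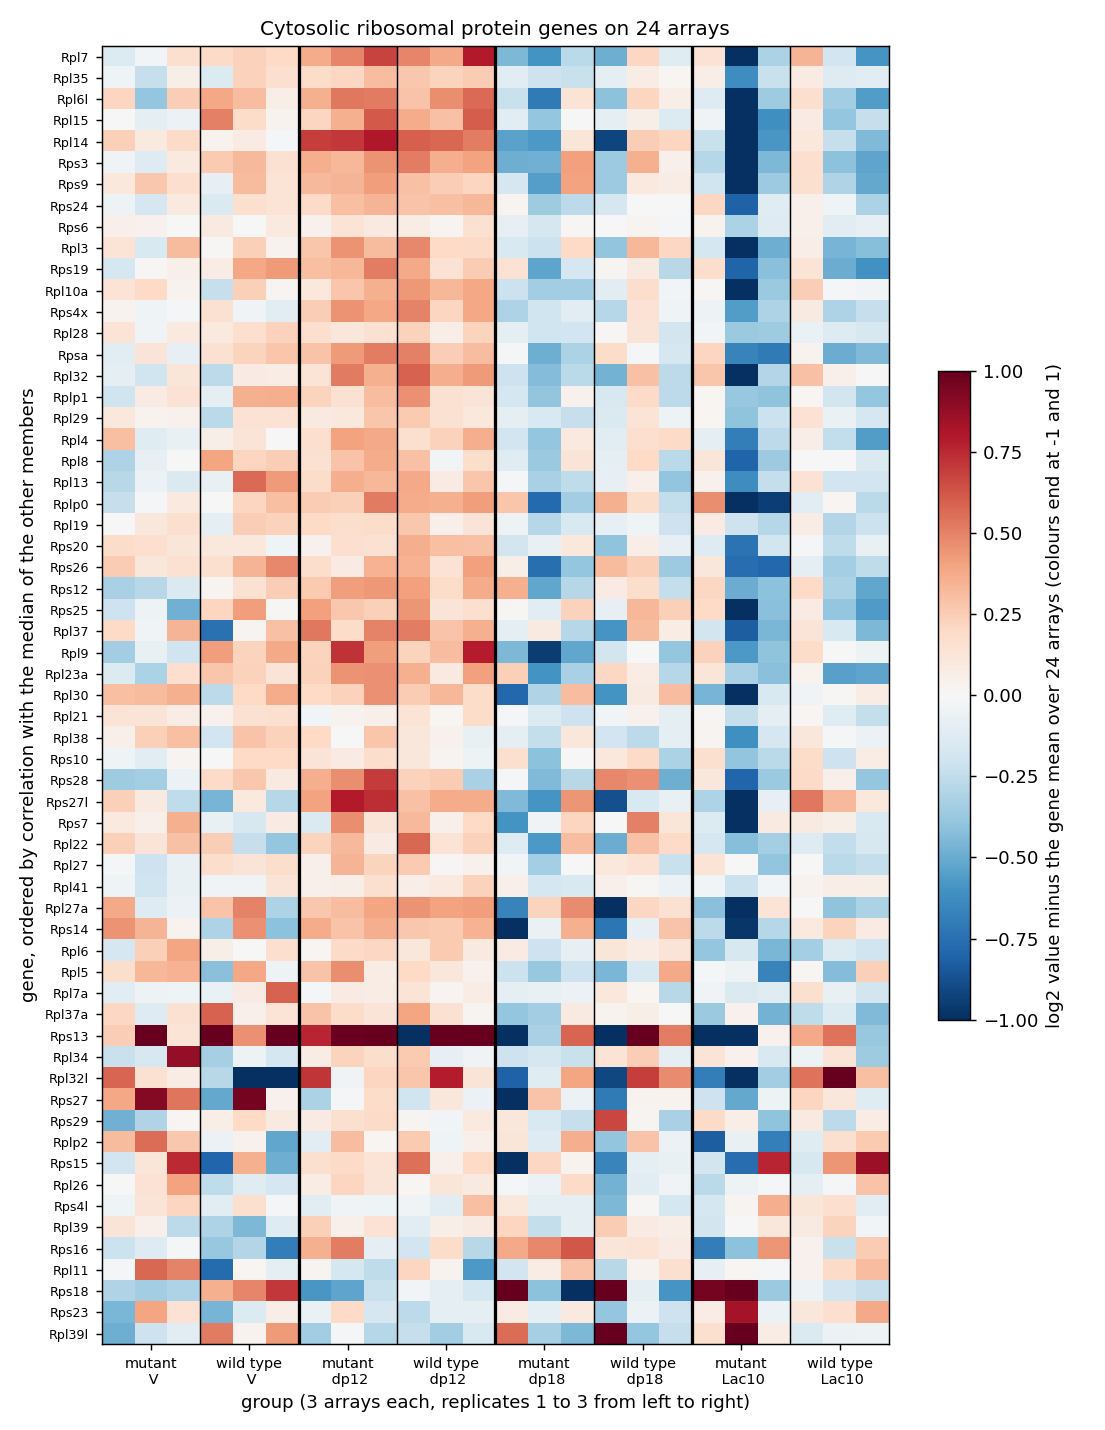
Log2 value of each of the 61 tested members minus its mean over 24 arrays, one row per gene and one column per array, with mutant left of wild type at each stage. The 6 dp12 arrays are red for most genes, mutant Lac10 replicate 2 is the bluest column, and the rows at the bottom, Rps18, Rps23 and Rpl39l among them, run against the rest.

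Across the stages the members as a group were highest at dp12. The median over 61 members of the deviation from each gene's own mean was, in mutants, -0.00, -0.02 and 0.10 at V, then 0.20, 0.27 and 0.28 at dp12, -0.10, -0.30 and -0.06 at dp18, and -0.03, -0.61 and -0.31 at Lac10. In wild type it was -0.01, 0.18 and 0.13 at V, 0.27, 0.15 and 0.20 at dp12, -0.11, 0.09 and -0.06 at dp18, and 0.08, -0.13 and -0.18 at Lac10. The 3 mutant dp12 arrays lay above all 9 other mutant arrays, whereas in wild type the dp12 and V arrays overlapped. On the dp12 arrays 51 to 55 of the 61 members were above their own mean, against 9 on mutant Lac10 replicate 2 and 6 on mutant dp18 replicate 2. The array labelled mutant dp18 replicate 2 (-0.30) had nearly the value of mutant Lac10 replicate 3 (-0.31), the array it correlated with best. Centring each array on 20 housekeeping genes, with no ribosomal protein among them, moved the dp12 arrays to between -0.17 and 0.02 and wild-type V to between 0.16 and 0.46. Relative to these housekeeping genes, the dp12 arrays were thus not the highest. The housekeeping list itself moved between -0.88 and 0.44 over the arrays.

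**Figure D2:**
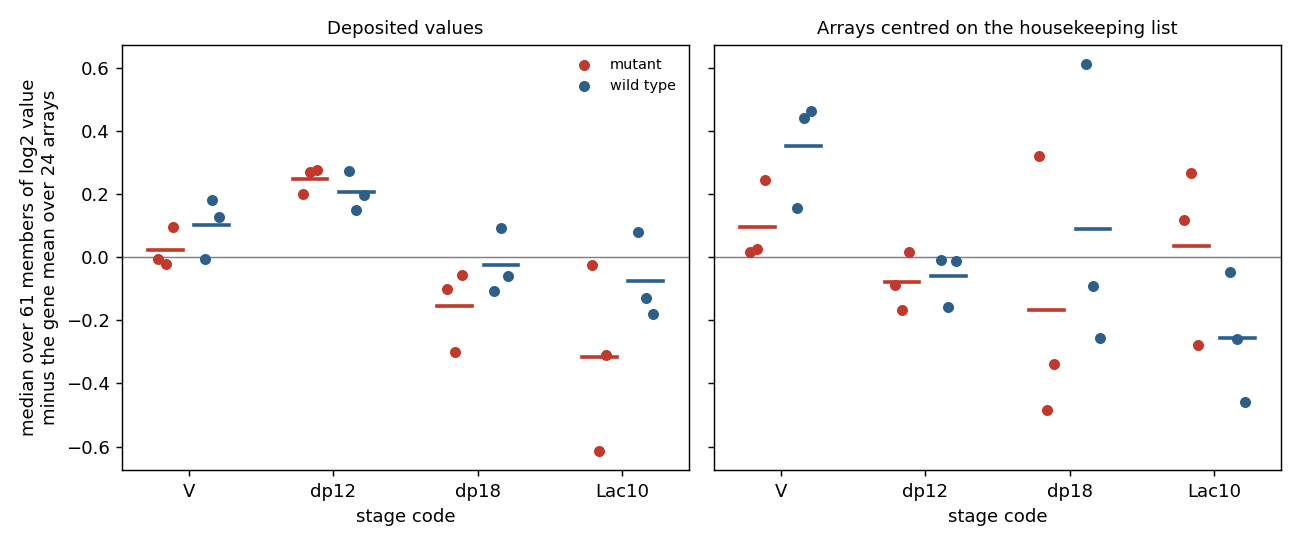
Median over 61 members of the log2 value minus the gene mean over 24 arrays, by stage, with a point for each array and a bar at the mean of 3, mutant in red left of wild type in blue. On the deposited values (left panel) the dp12 arrays sit at 0.15 to 0.28, and after centring on the housekeeping list (right panel) they sit at -0.17 to 0.02.

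Counted gene by gene, the mean at dp12 was the highest of the 4 stages for 42 of 61 members in mutants and for 35 in wild type, against 39.2% and 43.2% of all genes. It was the highest in both genotypes for 29 members, against 26.3% of all genes. Of the 42 bright members, 35 peaked at dp12 in mutants and 28 in wild type. The lowest stage was Lac10 for 43 members in mutants, against 46.6% of all genes, and for 32 members in wild type, against 16.8% of all genes. Of these 32 members in wild type, 29 were bright.

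The step from V to dp12 asks how the family stood once the cycling-cell markers had gone up, since 7 of 7 tested markers of cycling cells passed the test upward in both genotypes. No member passed the test here, by limma with a Benjamini-Hochberg adjusted p under 0.05 over 15234 genes, in mutants (0 of 61, against 4.44% of all genes, 3.02% higher and 1.42% lower) or in wild type (0 of 61, against 6.45%, 5.91% higher and 0.538% lower). At an unadjusted p under 0.05 there were 6 members in mutants, or 9.84% against 15.3% of all genes, and 1 in wild type, or 1.64% against 32.4%. The median difference of the members was 0.18 in mutants, against 0.01 for all genes, with 44 of 61 above 0. The wild-type median was 0.15, against 0.28 for all genes, with 45 of 61 above 0. Of all genes, 51.1% were above 0 in mutants and 66.4% in wild type. All 3 dp12 arrays exceeded all 3 V arrays for 28 members in mutants, against 22.1% of all genes, and for 15 in wild type, against 41.7% of all genes. Of the 28 in mutants, 27 were bright. The median of the members turned to -0.22 in mutants and -0.37 in wild type when arrays were centred on the housekeeping list, which moved the median of all genes to -0.39 and -0.24. Relative to all genes, the members' median thus stood 0.17 higher in mutants and lower in wild type (-0.13), a gap that no centring of arrays can change. Among bright genes the median was 0.30 for the members and 0.07 for all in mutants, and 0.12 and 0.48 in wild type. Without a filter on low values the wild-type gap turned to 0.15. Fits are counted below as moving such a gap when they changed it by over 0.0005.

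The members nearest to the threshold in this step were Rpl9 and Rps28 in mutants. Rpl9, a large-subunit protein, had 9.51, 10.01 and 9.71 at mutant dp12, against 8.94, 9.22 and 9.09 at mutant V, a difference of 0.66 with SE 0.22 (limma adjusted p = 0.103). Rps28, of the small subunit, had 10.90, 11.00 and 11.24 at mutant dp12, against 10.18, 10.19 and 10.47 at mutant V, a difference of 0.77 with SE 0.27 (limma adjusted p = 0.12). The dp12 and V arrays did not overlap for either gene in mutants. In wild type the differences were 0.10 for Rpl9 and -0.13 for Rps28, and the groups overlapped. In wild type the smallest p belonged to Rpl32l (1.25, SE 0.41, limma adjusted p = 0.0642) and Rps4x (0.36, SE 0.17, limma adjusted p = 0.154). The wild-type difference of Rps4x was -0.04 after centring on array medians and -0.16 after centring on the housekeeping list.

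From dp12 to dp18 the members were lower, without any passing the test. None of 61 members passed in mutants or in wild type by limma, as did 0.0% of all genes in both. At an unadjusted p under 0.05 there were 23 members in mutants, or 37.7% against 13.7% of all genes, and 8 in wild type, or 13.1% against 9.69%. The median difference was -0.40 in mutants, against -0.17 for all genes, and 54 of 61 members were below 0. The wild-type median was -0.26, against -0.21 for all genes, and 52 of 61 were below 0. Above 0 were 7 members in mutants and 9 in wild type, against 36% and 32.7% of all genes. Among bright genes the median was -0.47 for the members and -0.36 for all in mutants, and -0.27 and -0.38 in wild type, so in wild type the members' median was the less negative. Luminal epithelial markers had a median of -1.33 in mutants and -0.62 in wild type in this step, with 11 of 11 below 0 in both. In mutants 10 of 10 lymphocyte markers and 6 of 6 endothelial markers were above 0, with medians of 0.77 and 0.92, and the part of these shifts was not tested. All 3 dp18 arrays lay below all 3 dp12 arrays for 31 members in mutants, against 20.6% of all genes, and for 24 in wild type, against 18.9%. No member had all dp18 arrays above all dp12 arrays in either genotype, against 5.49% of all genes in both. Rpl9 had the smallest p in both genotypes. It had 8.84, 8.34 and 8.77 at mutant dp18, against 9.51, 10.01 and 9.71 at mutant dp12, a difference of -1.09 with SE 0.22 (limma adjusted p = 0.121). Its wild-type values were 9.11, 9.29 and 8.90 at dp18, against 9.51, 9.60 and 10.08 at dp12, a difference of -0.63 with SE 0.22 (limma adjusted p = 0.484). Every dp18 array was below every dp12 array for Rpl9 in both genotypes. Next came Rpl14 in mutants (-1.06, SE 0.32, limma adjusted p = 0.275) and Rps20 in wild type (-0.46, SE 0.18, limma adjusted p = 0.484). Without the 2 arrays that went against their stage labels, the members' median in mutants was -0.35 and that of all genes -0.26, so the gap between them was -0.09 rather than -0.23. The mutant difference of Rpl9 was then -0.94 (limma adjusted p = 0.401). Centred on the housekeeping list, the wild-type median turned to 0.12, with all genes at 0.17.

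**Figure D3:**
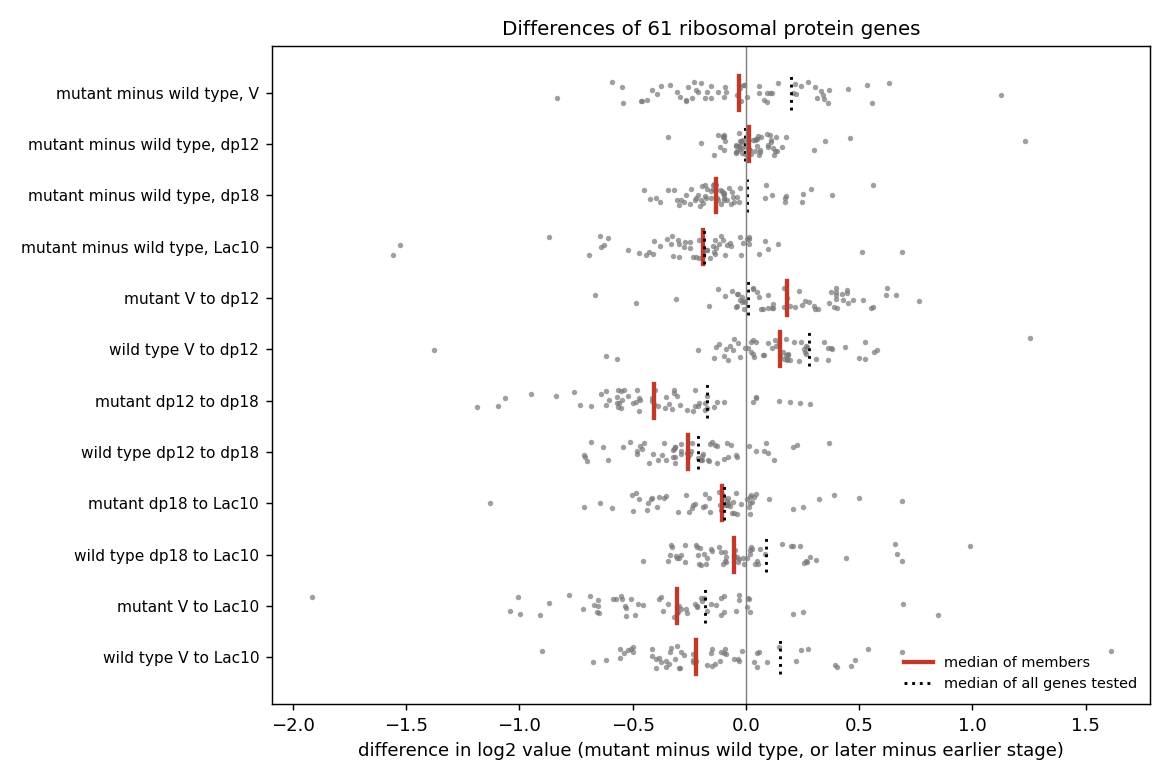
Log2 differences of the 61 tested members, one point per gene, mutant minus wild type at each stage and later minus earlier stage within a genotype, with red bars at the members' median and dotted bars at the median of all 15234 genes. The members' median lies to the left of the median of all genes by 0.37 in wild type V to Lac10 and by 0.23 in mutant dp12 to dp18.

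From dp18 to Lac10 no member passed the test by limma in mutants or in wild type, with 0.0% of all genes called in both. An unadjusted p under 0.05 was found for 3 members in mutants, or 4.92% against 2.95% of all genes, and for 1 in wild type, or 1.64% against 8.0%. The median difference was -0.10 in mutants, equal to that of all genes to 2 decimals, and -0.05 in wild type, against 0.09 for all genes. The mutant gap of -0.008 kept its sign in 8 of the 14 alternative fits that moved it. It ran from -0.18 without the 2 arrays that went against their stage labels to 0.22 with array weights. In wild type the gap was -0.14 and ran from -0.26 to -0.05 over 14 such fits. Rps16, of the small subunit, had the smallest p in mutants (-0.71, SE 0.24, limma adjusted p = 0.987). Rps27l had it in wild type (0.69, SE 0.30, limma adjusted p = 0.577). The arrays did not overlap for 1 member higher and 0 lower in mutants (1.02% and 1.46% of all genes) and 3 higher and 2 lower in wild type (9.83% and 2.67%).

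From V to Lac10, the widest span, 1 member passed the test in each genotype. In mutants Rplp2 was lower, 1 of 61 against 2.88% of all genes, with 2.59% lower. In wild type Rpl32l was higher, 1 of 61 against 7.24% of all genes, with 6.01% higher and 1.23% lower. The median of the members was -0.31 in mutants, against -0.18 for all genes, with 53 of 61 below 0. The wild-type median was -0.22, against 0.15 for all genes, with 45 of 61 below 0. Above 0 were 8 members in mutants and 16 in wild type, against 37% and 61.5% of all genes. In wild type the members' median was therefore 0.37 lower than that of all genes, and this gap ran from -0.45 to -0.16 over the 13 alternative fits that moved it. In mutants the gap was -0.13, and of the 13 alternative fits that moved it 2 turned its sign, to 0.04 without mutant Lac10 replicate 3 and 0.05 with array weights. Among genes with a mean above the mean upper quartile of the arrays, the median was -0.30 for the 42 bright members and -0.46 for all 6779 such genes in mutants, so the order of the 2 medians turned. In wild type these medians were -0.29 and 0.29. All Lac10 arrays lay below all V arrays for 20 members in mutants, against 18.3% of all genes, and for 12 in wild type, against 10.9%. They lay above for 1 member in mutants, against 4.04% of all genes, and for 7 in wild type, against 26.4%. At an unadjusted p under 0.05 there were 22 members in mutants, or 36.1%, and 7 in wild type, or 11.5%, against 24.5% of all genes in each.

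Rplp2 had 4.58, 5.32 and 4.72 at mutant Lac10, against 5.71, 5.96 and 5.67 at mutant V, and fell by 0.91 (SE 0.23, limma adjusted p = 0.0398). The 2 mutant groups did not overlap. In wild type it had 5.28, 5.56 and 5.66 at Lac10, against 5.34, 5.45 and 4.88 at V, a difference of 0.28 with SE 0.23 (limma adjusted p = 0.473), and the groups overlapped. The difference between genotypes in this step was -1.19 (SE 0.33, limma adjusted p = 0.0649). The call in mutants was lost in 11 of 24 fits that each left out 1 array, namely mutant V replicates 1, 2 and 3, mutant Lac10 replicates 1 and 3, mutant dp12 replicates 1 and 3, wild-type dp12 replicates 1, 2 and 3 and wild-type Lac10 replicate 2. It was also lost with the compared groups fitted alone and with both centrings of the arrays (limma adjusted p of 0.131 and 0.236). Over all alternatives the limma adjusted p ran from 0.00494 to 0.265.

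Rpl32l, a symbol named for its likeness to Rpl32, had 5.50, 6.39 and 5.26 at wild-type Lac10, against 4.68, 3.68 and 3.96 at wild-type V, and rose by 1.61 (SE 0.41, limma adjusted p = 0.0206). It still passed with that group's replicate 1 left out, and without wild-type Lac10 replicate 2, V replicate 2 or V replicate 3 it did not (limma adjusted p of 0.133, 0.0841 and 0.084). In mutants it had 4.27, 3.68 and 4.61 at Lac10, against 5.54, 5.11 and 5.04 at V, a difference of -1.04 with SE 0.41 (limma adjusted p = 0.137). The Lac10 arrays lay above all V arrays in wild type and below all V arrays in mutants, and the difference between genotypes was -2.65 (SE 0.58, limma adjusted p = 0.0537), with 0.0197% of all genes called. Without the 2 arrays that went against their stage labels it was -2.76 (limma adjusted p = 0.0439). Both Rplp2 and Rpl32l were dim probe sets, with means near or below the array medians. Rpl32, measured by a bright probe set, had 10.99, 9.64 and 10.42 at mutant Lac10, against 10.61, 10.51 and 10.83 at mutant V, and 11.00, 10.76 and 10.70 at wild-type Lac10, against 10.45, 10.79 and 10.78 at wild-type V. The Lac10 and V arrays of Rpl32 overlapped in both genotypes.

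Single arrays weighed on the mutant Lac10 group. Without mutant Lac10 replicate 1, which correlated best with wild type V replicate 1, 10 of 61 members passed the test from V to Lac10 in mutants, all lower. In that fit 1794 of 15234 genes were called in all, against 438 with all arrays. The 10 were Rpl10a, Rpl14, Rpl15, Rpl3, Rpl30, Rplp0, Rps20, Rps26, Rps9 and Rpsa, and Rplp2 was not among them. Leaving out replicate 2 of the group instead gave 1 member, Rplp2, with 69 genes called. Leaving out replicate 3 gave 1 member, Rpl30, with 668 genes called. With all arrays, Rpl30 had the second smallest p (-0.997, SE 0.30, limma adjusted p = 0.0658), and all 3 of its mutant Lac10 values, 5.83, 4.90 and 6.15, were below its mutant V values of 6.60, 6.61 and 6.65. In wild type the second smallest p belonged to Rpl37a (-0.54, SE 0.19, limma adjusted p = 0.0959), with 6.02, 6.14 and 5.84 at Lac10, against 6.87, 6.33 and 6.42 at V. Luminal epithelial markers averaged 6.61 to 9.61 on the mutant Lac10 arrays, against 9.48 to 9.69 on the mutant V arrays, and white adipocyte markers 6.49 to 9.12, against 6.44 to 6.84. The part of these shifts in the members' differences was not tested, and in bulk RNA fewer cells of a type and less RNA per cell cannot be told apart.

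**Figure D4:**
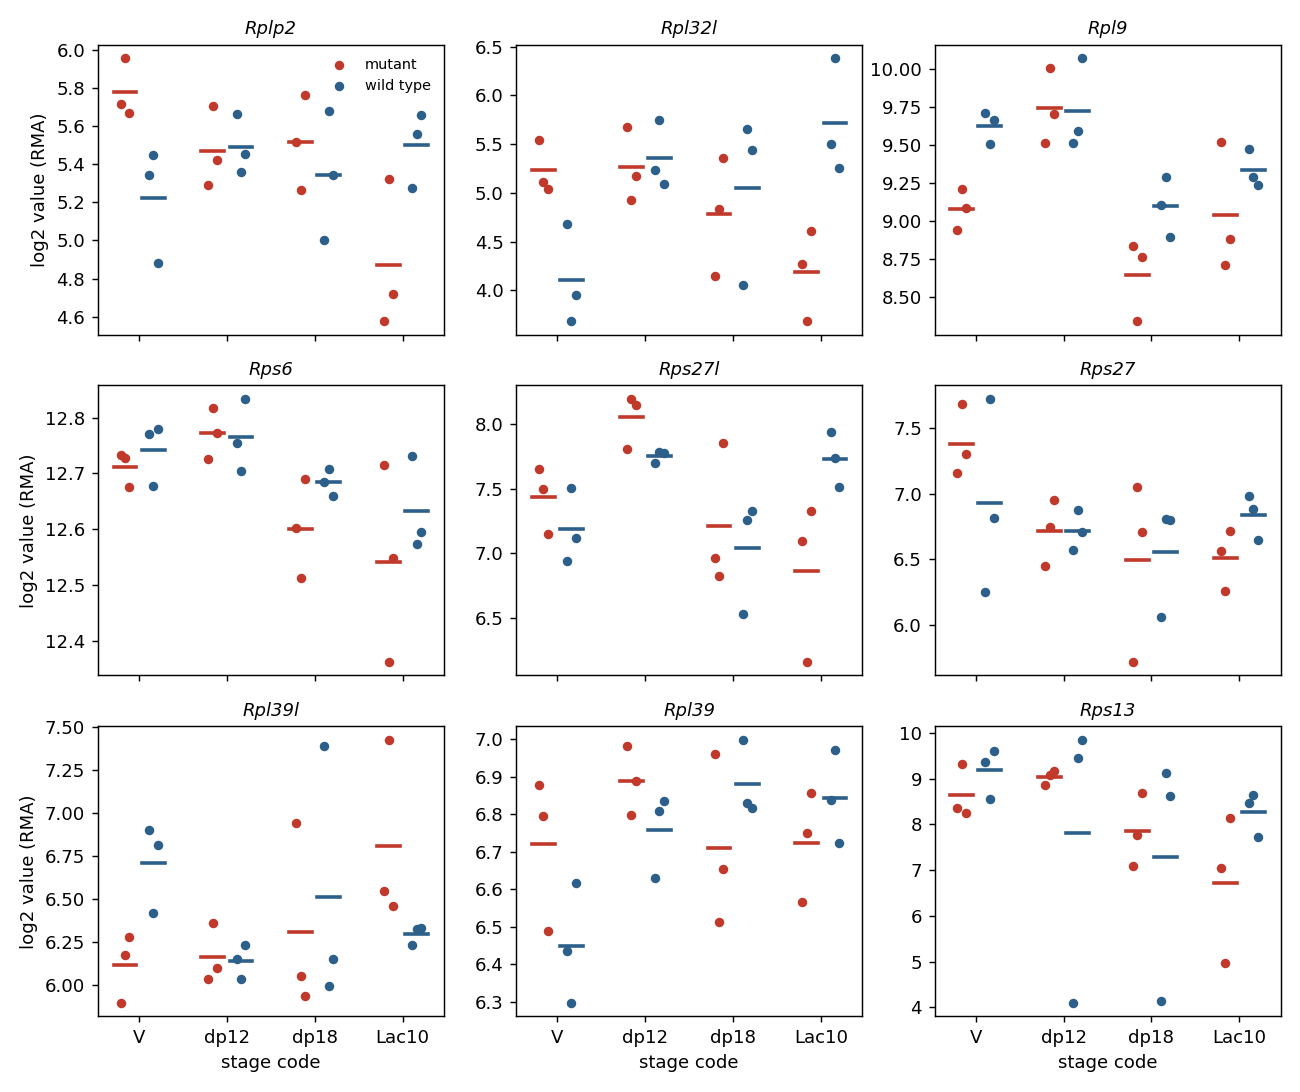
Log2 values of 9 members on each array by stage, mutant in red left of wild type in blue, with a bar at the mean of 3 arrays. Rplp2 is lowest at mutant Lac10, Rpl32l separates in opposite directions between V and Lac10 in the 2 genotypes, and Rps13 drops below 5 on 3 single arrays.

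Mutant and wild type were then compared within each stage. No member passed the test at V, dp12, dp18 or Lac10 by limma, where 0.0263%, 0.0%, 0.0% and 0.236% of all genes were called, or with the stages averaged (0.0%). An unadjusted p under 0.05 was found for 6 members at V and 5 at Lac10, or 9.84% and 8.2%, against 15.8% and 17.6% of all genes. It was found for 0 at dp12, 0 at dp18 and 1 for the average, against 1.21%, 0.656% and 3.01% of all genes. The median difference, mutant minus wild type, was -0.03 at V against 0.20 for all genes, 0.01 at dp12 against -0.00, -0.13 at dp18 against 0.01, and -0.19 at Lac10 against -0.19. The members' median was thus lower than that of all genes by 0.23 at V, and the gap ran from -0.35 to -0.06 over the 12 alternative fits that moved it, with -0.06 without a filter on low values. Among bright genes the median at V was -0.16 for the members and 0.35 for all. At dp18 the gap was -0.14, and it was -0.00 without the 2 arrays that went against their stage labels. At dp18 11 of 11 luminal epithelial markers were below 0 (median -0.73) and 10 of 10 lymphocyte markers above 0 (median 1.07). At Lac10 10 of 11 luminal markers were below 0 (median -1.03) and 7 of 9 white adipocyte markers above 0 (median 0.93), and the part of these shifts was not tested. Among bright genes the median at Lac10 was -0.18 for the members and -0.40 for all. The median at Lac10 turned to 0.34 when arrays were centred on the housekeeping list, with all genes at 0.34 too, since centring cannot change the gap. The gap at Lac10 was -0.003 and kept its sign in 9 of the 14 alternative fits that moved it. It ran from -0.17 without a filter on low values to 0.17 with array weights.

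At V the mutant arrays lay below all wild-type arrays for 15 of 61 members, against 8.64% of all genes, and above for 6, against 25.5%. Of the 15 lower members, 13 were bright, among them Rpl7, Rpl8, Rpl9, Rps3, Rps12, Rps19 and Rpsa. Rps19, the small-subunit protein mutated in Diamond-Blackfan anaemia in humans, had 9.63, 9.82 and 9.86 in mutants and 9.89, 10.20 and 10.24 in wild type at V. Rpsa, also known as the laminin receptor, had 10.10, 10.34 and 10.12 in mutants and 10.36, 10.43 and 10.48 in wild type. The differences of -0.34 for Rps19 (SE 0.24, limma adjusted p = 0.46) and -0.24 for Rpsa (SE 0.22, limma adjusted p = 0.567) did not pass the test. The smallest p at V belonged to Rpl32l (1.12, SE 0.41, limma adjusted p = 0.262) and Rpl11 (0.63, SE 0.24, limma adjusted p = 0.264), both higher in mutants. At dp12, 4 members were above without overlap and 3 below, against 6.69% and 10.2% of all genes. At dp18 it was 1 above and 4 below, against 1.27% and 1.07%, the 4 being Rpl10a, Rpl34, Rpl35 and Rpl9. At Lac10 it was 1 above, Rpl39l, and 6 below, against 3.24% and 12.4%, and the 6 included Rpl32l (-1.53, SE 0.41, limma adjusted p = 0.0836) and Rps27l (-0.87, SE 0.30, limma adjusted p = 0.155).

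The difference between genotypes in a step was called for no member by limma in any of the 4 steps tested, with 0.00656% of all genes called from V to dp12, 0.0% from dp12 to dp18, 0.0% from dp18 to Lac10 and 0.0197% from V to Lac10. At an unadjusted p under 0.05 there were 2, 1, 3 and 10 members in these steps, or 3.28%, 1.64%, 4.92% and 16.4%, against 5.95%, 0.414%, 6.26% and 30.8% of all genes. The smallest p from V to dp12 and from dp12 to dp18 belonged to Rps28 (0.90 and -0.86, limma adjusted p of 0.695 and 1).

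Other members of the stalk and those with known roles in signalling gave no call. Rplp0, the base of the stalk, averaged in mutants 10.27 ± 0.17 at V, 10.66 ± 0.16 at dp12, 10.04 ± 0.53 at dp18 and 9.79 ± 0.87 at Lac10 (SD, n = 3 each). In wild type it averaged 10.49 ± 0.16, 10.70 ± 0.03, 10.42 ± 0.31 and 10.20 ± 0.15 at the same stages. Dp12 was its highest and Lac10 its lowest stage in both genotypes, and no difference passed the test. Rps6 spanned 12.36 to 12.83 over all arrays and had the smallest SD of 8 group means (0.08), followed by Rpl41 (0.09) and Rps4l (0.10). Rpl5 and Rpl11, which form a complex with the 5S ribosomal RNA, differed from V to Lac10 by -0.53 (SE 0.24, limma adjusted p = 0.188) and -0.37 (SE 0.24, limma adjusted p = 0.323) in mutants. In wild type they differed by -0.03 (SE 0.24, limma adjusted p = 0.953) and 0.47 (SE 0.24, limma adjusted p = 0.231). The largest SD of group means was seen for Rps13 (0.85), Rpl32l (0.57) and Rpl14 (0.50).

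Rps13 was unlike the other members in its spread. It had 4.98 at mutant Lac10 replicate 2, 4.10 at wild type dp12 replicate 1 and 4.14 at wild type dp18 replicate 1, and 7.05 to 9.86 on the other 21 arrays. At mutant Lac10 it had 7.05, 4.98 and 8.14, against 8.35, 9.33 and 8.24 at mutant V, a difference of -1.92 with SE 1.21 (limma adjusted p = 0.32). Of its 3 low arrays, mutant Lac10 replicate 2 and wild type dp18 replicate 1, were also low in their correlation with the other arrays, and wild type dp12 replicate 1 was not.

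Paralogs with restricted use were set beside their usual copies. Rps27l, known as a p53 target, averaged in mutants 7.43 ± 0.25 at V, 8.05 ± 0.21 at dp12, 7.21 ± 0.56 at dp18 and 6.86 ± 0.62 at Lac10 (SD, n = 3 each). In wild type it averaged 7.19 ± 0.29, 7.75 ± 0.04, 7.04 ± 0.44 and 7.73 ± 0.21 at the same stages. Its mutant Lac10 arrays, 7.10, 6.16 and 7.32, lay below all wild-type Lac10 arrays, 7.94, 7.74 and 7.51. Rps27, the usual copy, had 6.56, 6.26 and 6.71 at mutant Lac10 and 6.99, 6.88 and 6.64 at wild-type Lac10, which overlapped. Rpl39l, known for its use in male germ cells, had 6.55, 7.43 and 6.46 at mutant Lac10, against 5.90, 6.18 and 6.28 at mutant V, and 6.24, 6.33 and 6.33 at wild-type Lac10, against 6.90, 6.42 and 6.81 at wild-type V. The Lac10 arrays lay above the V arrays in mutants and below them in wild type, without overlap, and the difference between genotypes of 1.11 did not pass the test (SE 0.45, limma adjusted p = 0.118). Rpl39 had 6.57, 6.75 and 6.86 at mutant Lac10 against 6.88, 6.80 and 6.49 at mutant V, and 6.84, 6.97 and 6.72 at wild-type Lac10 against 6.44, 6.30 and 6.62 at wild-type V.

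The muscle-type Rpl3l and the testis-type Rpl10l did not pass the filter, with means of 4.85 and 4.82 that lay below every array median. Rpl3, the usual copy of Rpl3l, was bright, with a mean of 11.02, and the symbol Rpl10 was not among the members. Rps4l, with a mean of 5.37, spanned 4.92 to 5.73 and differed from V to Lac10 by -0.03 in mutants and 0.05 in wild type (SE 0.18 each). Its usual copy Rps4x differed by -0.30 and -0.15 (SE 0.17 each, limma adjusted p of 0.281 and 0.62). Rpl6l followed the other members (correlation 0.92), and reads of probes cannot be split here between it and near-identical copies such as Rpl6.

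Genes around the ribosome were described from lists of ribosome assembly factors, RNA polymerase I, translation factors, Myc and mTOR control, and p53. All list values come from the fit with all 24 arrays, those that stood apart or went against their label included. Beside their counts, 4.44% of all genes were called from V to dp12 in mutants and 6.45% in wild type, and 2.88% and 7.24% from V to Lac10. From V to dp12, 4 of 69 tested genes of the mitochondrial ribosome passed the test upward in mutants and 10 in wild type, with 65 and 69 above 0 and medians of 0.46 and 0.62, against 0.01 and 0.28 for all genes. Mrpl34 was among them in both genotypes (1.08 with limma adjusted p = 0.0462 in mutants, and 1.15 with limma adjusted p = 0.0347 in wild type). The cytosolic members, with none called, had medians of 0.18 and 0.15 in the same steps. Ribosome assembly factors gave 0 of 84 called in mutants and 1 in wild type, with medians of -0.05 and 0.43, the 1 being Pelp1 (1.00, limma adjusted p = 0.0468). Initiation factors gave 1 of 30 in each genotype, Eif2b4 of the guanine nucleotide exchange factor eIF2B in both (1.00 with limma adjusted p = 0.0334 in mutants, 1.07 with limma adjusted p = 0.0266 in wild type).

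From V to Lac10 in mutants, all 84 ribosome assembly genes were below 0 with a median of -1.0, against -0.18 for all genes, and 12 passed the test, all lower, where 2.59% of all genes were called lower. Noc3l, an assembly factor of the large subunit, fell by 2.08 (SE 0.46, limma adjusted p = 0.0234), and Nop58, a core protein of box C/D snoRNA particles, fell by 1.89 (SE 0.43, limma adjusted p = 0.0267). In wild type the median of this list was -0.13, against 0.15 for all genes, and 1 gene passed, Tsr2, lower (-0.85, SE 0.21, limma adjusted p = 0.0172). Myc fell by 1.88 in mutants (SE 0.41, limma adjusted p = 0.0224), and its list gave 2 of 23 called, both lower, with Sesn2 as the other (-2.14, limma adjusted p = 0.0295). In wild type the Myc and mTOR list gave 1 of 23, Deptor, a binding partner of mTOR, higher (2.12, limma adjusted p = 0.00075). The p53 list gave 3 of 10 lower in mutants, Cdkn1a (-1.60, limma adjusted p = 0.0229) and Sesn2 among them, and 0 of 10 in wild type. RNA polymerase I factors gave 1 of 16 lower in mutants, Polr1b (-1.19, limma adjusted p = 0.0421), and 1 of 16 higher in wild type, Taf1d (1.09, limma adjusted p = 0.0287). Elongation factors and other TOP mRNAs gave 1 of 14 lower in each genotype, Pabpc1 in mutants (-1.0, limma adjusted p = 0.0476) and Npm1 in wild type (-1.19, limma adjusted p = 0.0418). Initiation factors gave 3 of 30 lower in mutants, with Eif1a at -1.77 (limma adjusted p = 0.0482), and 1 of 30 higher in wild type. Host genes of snoRNAs gave 1 of 12 lower in mutants, Snhg1 (-1.23, limma adjusted p = 0.0472), and 0 of 12 in wild type. In mutants the median of the ribosomal protein members was -0.31 beside -1.0 for assembly factors, -0.58 for elongation factors and other TOP mRNAs and -0.47 for the housekeeping list.

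**Figure D5:**
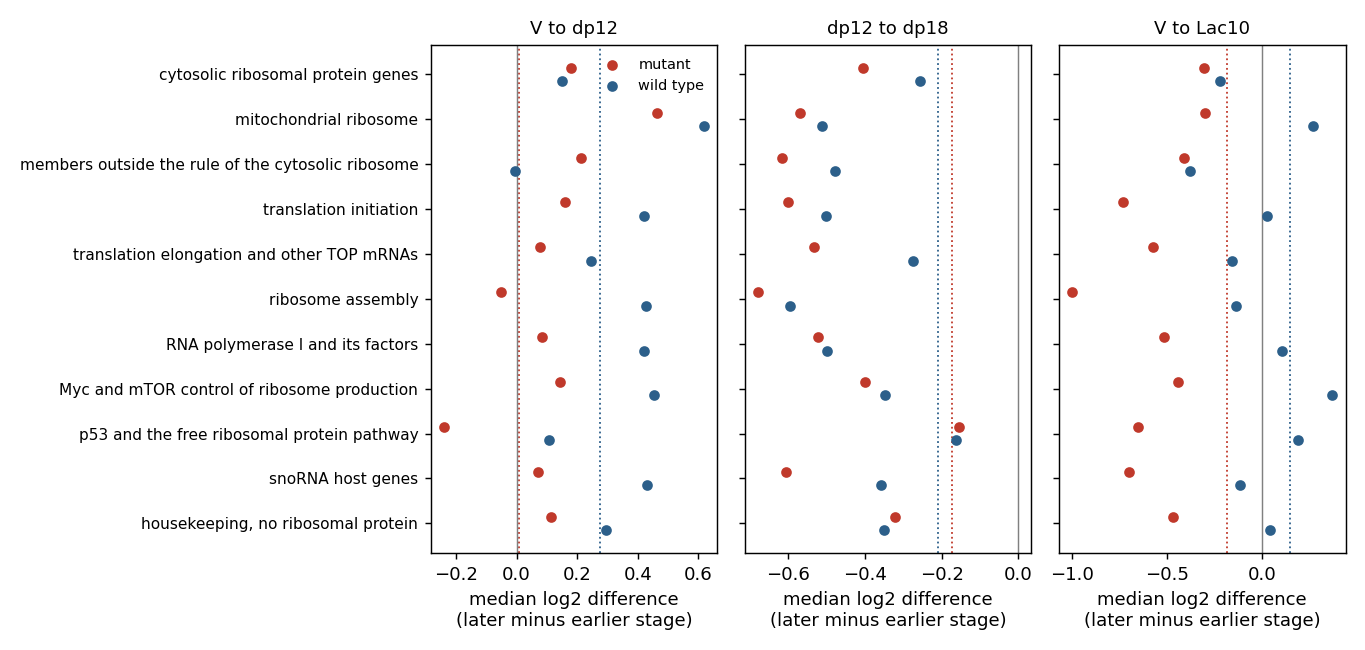
Median log2 difference, later minus earlier stage, of the 61 members and of 10 other gene lists in 3 steps, mutant in red above wild type in blue, with dotted lines at the median of all genes in each genotype. From V to Lac10 the mutant medians reach -1.0 for ribosome assembly and -0.31 for the ribosomal protein genes, and from dp12 to dp18 every list median is below 0 in both genotypes.

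Probe sets shared by several symbols, which were not used to choose members, were measured beside them. Those that also carried a snoRNA symbol were left out. Of the 48 others with a ribosomal protein symbol, 46 passed the filter. Their median difference was 0.14 in mutants and 0.06 in wild type from V to dp12. It was -0.34 in mutants and -0.26 in wild type from dp12 to dp18, with 43 and 39 of 46 below 0. From V to Lac10 it was -0.27 in mutants and -0.21 in wild type, with 42 and 31 of 46 below 0. Their sign was opposite to the members' in wild type from dp18 to Lac10 (0.02, against -0.05 for the members) and for genotype at V (0.04, against -0.03). The genes Fau, Rpl22l1 and Rpl7l1, which encode ribosomal proteins or relatives under symbols outside the rule, gave no call. Rpl22l1, a paralog of Rpl22, had the smallest p of the 3 in wild type from V to dp12 (-0.59, SE 0.20, limma adjusted p = 0.0682).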

How the data were processed

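The deposited table held log2 values of 41345 probe sets on 24 arrays, which the authors made with RMA (version not given), per the submitters' processing notes. RMA normalizes arrays to each other, yet the deposited array medians ran from 5.31 to 5.62 and the SDs from 1.65 to 1.99. Total RNA was extracted with Trizol and biotin-labelled per the labels, whose treatment text instead describes an RNA pull-down, and this was not settled. The genome build is not given in the sources used here. Symbols came from the platform annotation: 23521 probe sets had 1 symbol, 1814 several and 16010 none, and only those with 1 symbol were tested.

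The members and gene lists were chosen with earlier results of these data known. In limma 3.58.1 (R 4.3.3), lmFit with a mean for each of 8 groups and eBayes gave 17 comparisons with p-values adjusted by Benjamini-Hochberg over 15234 genes, and the script was tested on simulated data. Genes named were Rplp0, Rpl5, Rpl11, Rps6, Rps19 and Rpsa, the paralogs, up to 4 called members a direction or else the 2 smallest p, the extremes of level and spread, and per list the 2 largest calls. Other members named, such as Rps13's low arrays, were picked after their values were seen. Alternatives were a mean of probe sets, other filters, centring on array medians or housekeeping genes, quantile normalization, a variance trend, array weights, the compared groups alone, 1 array left out, 3 weakly correlated arrays left out, a replicate block and body weight. The fit without 2 arrays unlike their stage label was added after seeing the data. Replicate numbers of wild-type arrays are those of the titles. The titles give none for mutants, whose numbers follow accession order. The number of arrays limits the precision: the median SE was 0.23.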

Additional observations from a re-analysis of the deposited data

Results flagged for a closer look

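With 3 arrays a group, no array could be tested as an outlier of its group. Several members moved in opposite directions in the 2 genotypes, with all arrays of each genotype on its own side, and none of these differences passed limma's adjusted threshold. The share of all genes that did so was not counted, so such moves are not shown to be particular to the members. From V to Lac10 the difference between genotypes was -2.65 for Rpl32l (limma adjusted p = 0.0537), -0.54 for Rpl26 (limma adjusted p = 0.14) and 1.11 for Rpl39l (limma adjusted p = 0.118). Rpl39l had its highest values on the arrays with a median correlation under 0.9. The same values, -2.65 for Rpl32l and 1.11 for Rpl39l, are the difference at Lac10 minus that at V, where mutant and wild-type arrays separated one way at Lac10 and the other way at V. From V to dp12 the genotype difference changed by 0.90 for Rps28 (limma adjusted p = 0.695) and by -0.30 for Rps20 (limma adjusted p = 0.719). For Rps27l the difference at Lac10 minus that at dp12 was -1.17, and this difference was not tested. All but Rps28 and Rps27l are dim probe sets.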

How the results depend on the processing

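Of 616 counts of called members under the alternatives, 550 stayed within 1.5 times the count reported and 66 moved, and of 1224 named differences 1141 kept their direction and side of the limma threshold, 64 passed it, 17 lost it and 2 reversed. The reversed ones were Rps4x in wild type from V to dp12, at -0.04 centred on array medians and -0.16 centred on the housekeeping list. Array weights called 16 members for genotype at V, 4 for genotype at Lac10, 21 in mutant V to dp12, 5 in mutant V to Lac10, 19 in wild type V to dp12, 8 in wild type dp12 to dp18, 20 in wild type dp18 to Lac10, 33 in wild type V to Lac10, and 12 and 20 for the difference between genotypes in V to dp12 and V to Lac10. In that order, these counts are 26.2%, 6.56%, 34.4%, 8.2%, 31.1%, 13.1%, 32.8%, 54.1%, 19.7% and 32.8% of the members. The shares of all genes called with array weights were 36.6%, 21.7%, 26.9%, 10.6%, 63.9%, 18.1%, 25.6%, 54.0%, 28.2% and 41.6%. Fitting the compared groups alone called 1 for genotype at V, 9 and 6 in V to dp12 in mutants and wild type, 0 and 2 in V to Lac10, and 1 for the difference between genotypes in V to dp12. The first 3 counts are 1.64%, 14.8% and 9.84% of the members, against 4.69%, 18.2% and 39.1% of all genes. In wild type V to Lac10 2288 of 15234 genes were called, and 1571 for the difference. Without the 3 weakly correlated arrays it was 4 for genotype at V, 4 and 5 in V to dp12, 6 in wild type V to Lac10 and 4 for the difference in V to Lac10. Of 15234 genes, 3067, 1605, 6271, 4238 and 2012 were called in the same order. The fit with body weight also left out wild type dp18 replicate 1 and mutant dp18 replicate 1, whose titles give no weight. The part of the covariate and that of the missing arrays were not told apart. With body weight it was 4 for genotype at Lac10, 3 and 9 in V to dp12, 2 in wild type V to Lac10 and 8 for the difference in V to Lac10. Beside these, 1613, 576, 4979, 2709 and 4563 of 15234 genes were called. Centring on the housekeeping list gave 2 in mutant V to dp12 and 12 in wild type V to Lac10, and centring on array medians 0 in mutant and 5 in wild type V to Lac10. The 2, 12 and 5 are 3.28%, 19.7% and 8.2% of the members, against 11.8%, 9.19% and 8.55% of all genes. In V to Lac10 the mean of probe sets gave 2 in mutants, and in wild type the 12-array filter, which removed Rpl32l, gave 0 and quantile normalization 6. The 2 and the 6 are 3.28% and 9.84% of the members, against 2.84% and 9.07% of all genes. Without the 2 arrays unlike their stage label, a fit chosen after seeing the data, it was 2 in wild type V to Lac10 and 1 for the difference between genotypes, with 978 and 154 of 15234 genes called. Leaving out 1 array gave 0 to 2 for genotype at Lac10, 0 to 1 in mutant dp12 to dp18, 0 to 10 in mutant V to Lac10, 0 to 1 in wild type V to dp12, 0 to 2 in wild type V to Lac10 and 0 to 6 for the difference in V to Lac10. Of 15234 genes, 1390 were called beside the 2 for genotype at Lac10, 1794 beside the 10 and 3825 beside the 6. It was 11 beside the 1 in mutant dp12 to dp18 and 904 to 2649 beside the 1 in wild type V to dp12. Beside the 2 in wild type V to Lac10 it was 952. The cause was not tested. The replicate block, possible in wild type alone, gave 0 members in each single step and 1 in V to Lac10, as without it. Beside that 1, 1263 of 15234 genes were called with the block and 1296 in wild-type arrays alone without it. Arrays with the same number correlated at -0.387 to 0.115, so the numbers were not taken as pairs. The number of arrays and the dim probe sets of 19 members limit the precision.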
